A study of Danio rerio with 2 samples.

Results

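Introns longer than 1000 bp and up to 5000 bp, called 1 to 5 kb introns here, were compared between whole zebrafish larvae (Danio rerio) homozygous for a caliban (clbn) mutation and wildtype larvae. An intron was a member if the table listed it under 1 Refseq gene ID with such a length, which is a choice by annotation alone. There were 25284 members among 55660 introns in the table (45.4%), in 8878 Refseq IDs. A further 490 introns of this length were listed under several IDs and were not members. Member lengths had a median of 2224 bp, with quartiles of 1623 and 3015 bp.

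The mutant group was 1 library of homozygous clbn larvae of the s841 allele, and the wildtype group was 1 library of larvae genotyped as homozygous wildtype. Both were aged 108 hours post-fertilization. Each library was made from the pooled RNA of about 60 larvae, whole bodies, so no value has a replicate error and all tissues are mixed. Both pools were raised with 0.003% PTU, which blocks pigment, from 24 hours of age, and both were selected for poly(A) RNA. The labels give no strain and do not say whether the pools came from the same clutches.

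Splicing removes introns from a transcript, and reads that map inside an intron can come from transcripts that still carry it. Most introns are removed by the major spliceosome, which recognises U2-type introns. A rare class, the U12-type introns, needs the minor spliceosome, and the series describes clbn as deficient in U12-type splicing. As background, clbn is a mutant of rnpc3, whose product belongs to the U11/U12 particle of that spliceosome. The table does not say which introns are of the U12 type. No sequence of the Zv9 build was at hand, so splice sites were not read.

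Retention was measured by the authors' retention coefficient. It is the intron's reads per unique kilobase, scaled by library size, over the deposited expression value of its gene. The unit of that gene value is not stated, nor whether it counts exons alone. A coefficient of 1 means an intron level equal to the gene value. The change was the log2 ratio of intronic over gene reads, mutant over wildtype, with a pseudocount of 0.5. Ratios not given as log2, called retention ratios, have no pseudocount. A member was tested if its gene had a value and the intron had at least 20 reads over both libraries. Of the members, 8811 (34.8%) were tested, in 4609 genes. Another 16012 had a gene value and fewer reads, and 461 had no gene value. For each intron, reads inside it and reads of its gene were set against each other in both libraries by Fisher's exact test, two-sided, with p-values adjusted over all 20223 tested introns of the table. Introns with a change of 2-fold or more whose adjusted p was below 0.05 are called higher or lower. Such a call is about these libraries and not about the genotypes.

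The libraries held 25718058 reads for the mutant and 28309779 for wildtype. Members took 567716 of the mutant reads and 596004 of the wildtype reads, or 31.3% and 30.2% of all intronic reads in the table. The median member held 6 reads in the mutant and 7 in the wildtype library, and the median tested member 18 and 19. Every intron in the table had at least 1 read in each library, so introns without a read in either library were not analysed here. The label of whole larvae was checked by marker genes. Muscle (mylpfa), neurons (elavl3), liver (fabp10a), skin (krt4), cones (gnat2), intestine (fabp2), cartilage (col2a1a), red blood cells (hbae3) and exocrine pancreas (prss1) all had reads in both libraries, while the lens marker cryaa has no row. The pancreas marker prss1 had a gene value of 854 in the mutant and 2618 in the wildtype library, the widest gap among them. In pooled whole animals, fewer cells of a type and less RNA per cell cannot be told apart. The gene value of rnpc3 itself was 2.503 in the mutant and 5.696 in wildtype.

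Retention in 1 to 5 kb introns was low in both libraries. The median coefficient of tested members was 0.0245 (95% interval 0.0239 to 0.0253) in the mutant and 0.0243 (0.0238 to 0.0250) in wildtype. Over all tested introns the medians were 0.0331 in the mutant and 0.0323 in wildtype. Shorter introns had more, with 0.290 and 0.288 up to 150 bp and 0.0775 and 0.0756 from there to 1000 bp. Longer ones had less, with 0.0152 and 0.0143 from 5 to 20 kb. The minimum of 20 reads favours short introns with many reads per kilobase, and median reads over both libraries were 39, 40 and 37 in the classes up to 5 kb, so this order is in part set by the minimum. Without it, over all introns with a gene value, the medians were 0.176 in the mutant and 0.173 in wildtype up to 150 bp, 0.0473 and 0.0454 from there to 1000 bp, 0.0172 and 0.0166 for 1 to 5 kb, and 0.0130 and 0.0123 from 5 to 20 kb. These still need 1 read in each library, which acts in the same direction. Intervals of medians reflect the spread among introns taken as independent, although introns of 1 gene share its reads. Between libraries the coefficients of tested members had a Spearman correlation of 0.832 over 8811 introns. That is a description across introns, which share libraries and gene reads.

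Inside the range, too, coefficients of tested members were lower in longer introns, under the same limit of the read minimum. Median coefficients were 0.0348 in the mutant and 0.0336 in wildtype for introns up to 1500 bp, 0.0246 in both between 2000 and 2500 bp, and 0.0186 and 0.0188 above 4500 bp. Without the minimum they were 0.0213 and 0.0209 up to 1500 bp, and 0.0130 and 0.0134 above 4500 bp, a smaller gap. The quartiles of neighbouring length bins overlapped widely. At the lower limit of the range, the last 100 bp of length outside it had medians of 0.0430 in the mutant and 0.0398 in wildtype, and the first 100 bp inside it 0.0372 and 0.0380. At the upper limit, the last 100 bp inside had 0.0172 and 0.0215, and the first 100 bp outside 0.0201 and 0.0164. The windows at the upper limit held only 95 introns inside and 78 outside. At each limit the 95% intervals of the medians overlapped, between libraries and between windows, so no difference is read from these values.

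**Figure D1:**
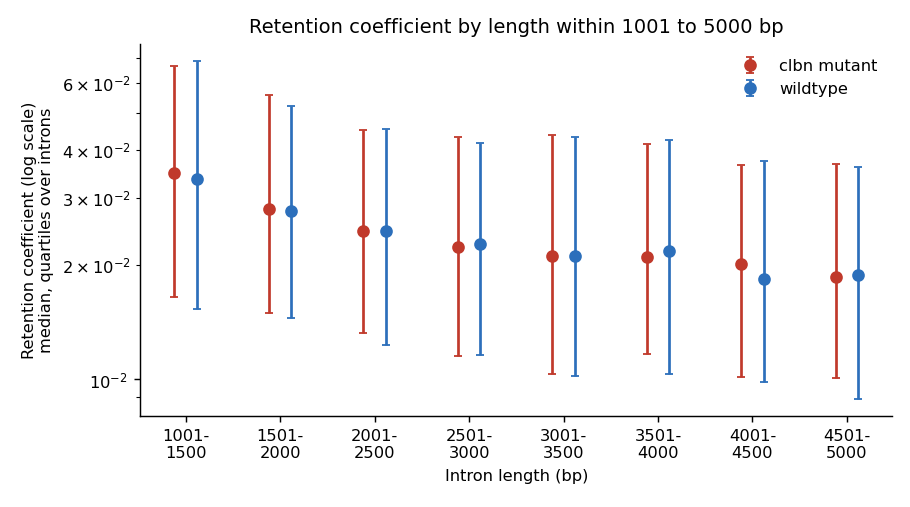
Median retention coefficient (log axis) of tested introns in 500 bp bins of intron length, for the mutant (red) and wildtype (blue) library; bars are quartiles over introns, not replicate error. The medians are 0.0348 and 0.0336 in the shortest bin and 0.0186 and 0.0188 in the longest, where the minimum of 20 reads admits introns with fewer reads per kilobase, and the libraries lie close together in each bin.

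High retention coefficients were rare among these introns. A coefficient over 0.1 was found for 868 tested members (9.85%) in the mutant and 784 (8.90%) in the wildtype library, against 25.4% and 24.8% over all tested introns. Over 0.5 there were 107 and 94, with 83 the same in both libraries, and over 1 there were 34 and 42, with 28 the same. The largest mean coefficient belonged to tmem51a, a transmembrane protein gene, in the intron at chromosome 8, 27555403 to 27559572. It held 2925 reads in the mutant and 2710 in wildtype, with coefficients of 10.6 and 11.1 and only 192 and 169 gene reads. The last of 2 listed introns in rnf139, which codes for a ubiquitin ligase of the endoplasmic reticulum, had 317 and 409 reads and coefficients of 1.4998 and 1.847 (chromosome 19, 184876 to 186363). The intron of impa2, an inositol monophosphatase gene, had 325 and 359 reads and coefficients of 1.60 and 1.57 (chromosome 24, 283523 to 286196). In tmed1b, of the p24 family of secretory cargo receptors, there were 268 and 289 reads and coefficients of 1.57 and 1.59 (chromosome 1, 59667528 to 59670886). Such coefficients above 1 mean an intron level, in scaled reads per unique kilobase, above the gene value. Whether those reads come from transcripts of the listed gene was not tested. Of the 10 introns with the largest mean coefficient, 3 had a unique length of 37 bp or less, in zdhhc16a, abcg2a and a gene without a symbol (NM_201093), with 8 to 29 reads a library. None of the 10 was called higher or lower, with retention ratios from 0.454 to 1.18.

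The members with most reads lay mainly in genes of muscle and the ribosome, and they differed little between the libraries. The intron of actc1b, a muscle actin gene, at chromosome 17, 760644 to 761971 held 15067 reads in the mutant and 16987 in wildtype, with coefficients of 0.0424 and 0.0449. In pvalb1, a calcium-binding parvalbumin of fast muscle, there were 16429 and 14834 reads and coefficients of 0.0524 and 0.0460 (chromosome 3, 61805694 to 61809001). An intron of the ribosomal protein gene rps29 had 13641 and 15179 reads and far higher coefficients, 0.843 and 0.910 (chromosome 20, 54438297 to 54440979). None of the 8 introns with most reads, a set named after values were seen, was called, and their retention ratios lay between 0.923 and 1.14. The 100 members with most reads held 33.7% of member reads in the mutant and 34.2% in wildtype.

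Most 1 to 5 kb introns had the same retention in both libraries within 2-fold. The median log2 ratio was 0.01 (95% interval 0.00 to 0.03, quartiles -0.41 and 0.45), against 0.03 over all tested introns and 0.16 over those longer than 20 kb. Of tested members, 7352 (83.4%) lay within 2-fold of equal retention, against 85.4% of all tested introns. The spread narrowed with reads, with quartiles of -0.51 and 0.54 at 20 to 49 reads and of -0.17 and 0.22 at 200 or more.

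Of the 8811 tested members, 297 were called higher in the mutant library and 141 lower. That is 3.37% (exact binomial 95% interval 3.004 to 3.769%) higher and 1.6% (1.35 to 1.88%) lower. Over all 20223 tested introns, members included, 590 (2.92%) were higher and 296 (1.46%) lower. Over the 11412 tested introns of other lengths, 2.57% (2.29 to 2.87%) were higher and 1.36% were lower. The interval for higher calls lies apart from that of the 1 to 5 kb introns. Among the single length classes, only that up to 150 bp (1.32%, 0.941 to 1.79%) had an interval apart. Such intervals take introns as independent, although introns of 1 gene share its reads. At an unadjusted p under 0.05 by Fisher's exact test and 2-fold, 655 of the 8811 members were higher and 471 lower. That rule was not counted over the whole table, so nothing particular to this length is read from it.

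The lean to the higher side grew with the size of the change. At 4-fold or more, 183 members (2.08%) were higher and 48 (0.545%) lower, against 311 (1.54%) and 95 (0.47%) over the whole table. At 8-fold, 80 members (0.908%) were higher and 5 (0.0567%) lower, against 128 (0.633%) and 7 (0.0346%), and 0.421% of introns of other lengths were higher by that much. At 16-fold, 35 of the 8811 tested members were higher and 0 lower, against 56 and 0 of the 20223 in the whole table. Differences between these shares were not tested.

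By length, the share called higher was 1.32% (0.941 to 1.79%) up to 150 bp, 2.75% (2.24 to 3.34%) from there to 1000 bp, 2.92% (2.399 to 3.517%) from 5 to 20 kb and 4.16% (3.09 to 5.46%) beyond. Only the interval of the shortest class lies apart from that of 1 to 5 kb introns. The share called lower was between 1.19 and 1.68% in those other classes. Inside the range, the 500 bp bins had 2.65 to 3.96% higher and 0.858 to 2.06% lower, with overlapping intervals.

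**Figure D2:**
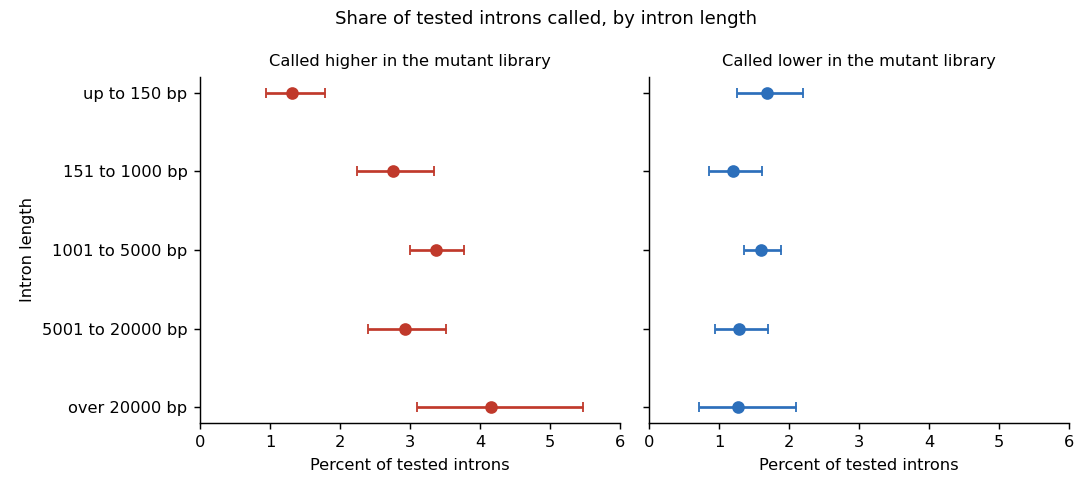
Percent of tested introns called higher (left) and lower (right) in the mutant library in 5 classes of intron length, with exact binomial 95% intervals over introns. The 1 to 5 kb introns had 3.37% higher and 1.6% lower; the highest class for higher calls was that over 20 kb (4.16%) and the lowest that up to 150 bp (1.32%).

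**Figure D3:**
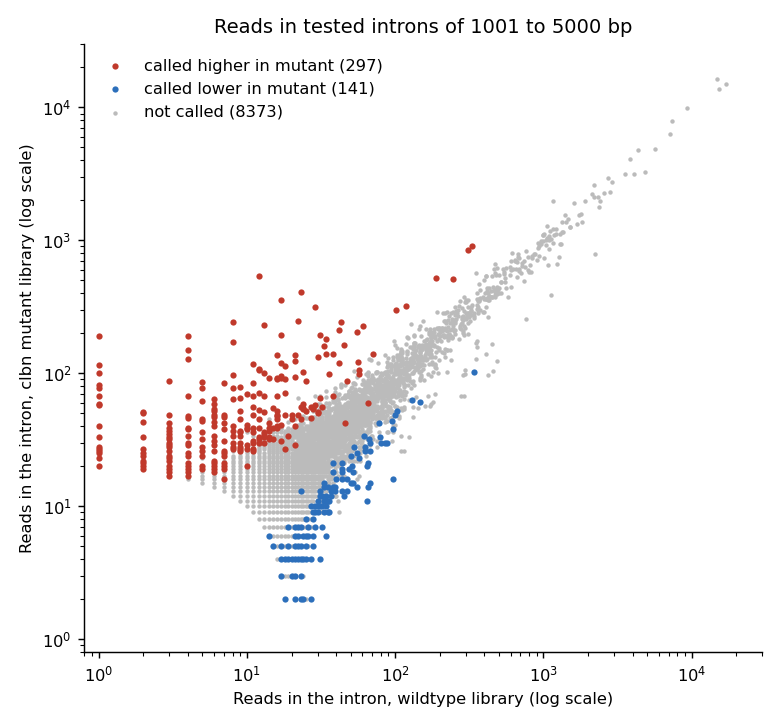
Reads of each tested 1 to 5 kb intron in the mutant (vertical, log axis) and wildtype library (horizontal, log axis); points with the same reads coincide. The 297 higher introns (red) reach down to 1 wildtype read, the 141 lower ones (blue) to 2 mutant reads, and the introns with most reads lie near the diagonal and are not called (grey).

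Most higher introns were the only higher member of their gene. Of the 4609 genes with a tested member, 2506 had only 1, and the median was 1. Calls that stand alone in their gene are favoured by this, so nothing is read from it, here or for the lower introns. The 297 higher introns lay in 276 genes, of which 255 had exactly 1, 21 had 2 and 0 had more. Their median reads were 39 in the mutant and 8 in wildtype, and their median coefficients 0.0801 and 0.0125. These values belong to introns chosen by the test, so they describe the calls. For 61 of them the wildtype count was 1 to 3 reads, and for 128 it was at least 10. The other 970 tested introns of any length in 222 of these genes had a median log2 ratio of 0.08. Of them, 36 were called higher and 15 lower, beside 2.92% and 1.46% of all tested introns. Members called higher were left out of the 970 by construction. The 36 are therefore all of other lengths, and that choice lowers the median. The genes themselves had a median log2 ratio of -0.02 in gene value, against 0.04 over the genes of all tested introns. Of the 276 genes, 3 were at least 2-fold lower and 4 at least 2-fold higher. With reads scaled by the library total in place of gene reads, 274 of the 297 (92.3%) were also called higher. That scaling called 384 members higher, and 3.88% of the 20317 introns of every length that it tested.

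Lower introns were fewer and rested more on the scaling. The 141 lower introns lay in 138 genes, 135 with exactly 1. Their median reads were 10 in the mutant and 31 in wildtype, and their median coefficients 0.0125 and 0.0475. The gene value was higher in the mutant for 101 of the 138 genes, with a median log2 ratio of 0.12. Over the genes of all tested introns that median was 0.04, and the share above no change was not counted there. Gene reads are the denominator of the retention ratio, so choosing lower calls itself favours genes that are higher in the mutant. Scaled by the library total, 98 of the 141 (69.5%) were also called lower. That scaling called 208 members lower, and 2.47% of introns of every length.

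The introns with the 15 largest rises are given by the roles of their genes, first those that act on proteins and RNA. The largest rise was in rnf175, a RING finger gene, with 100 reads in the mutant and 1 in wildtype at chromosome 1, 9114125 to 9115891. The mutant library was high and its coefficient was 0.382, against 0.00322 in wildtype. In tcp1, which codes for a subunit of the chaperonin that folds actin and tubulin, the intron at chromosome 23, 2444619 to 2446297 had 81 and 1 reads and coefficients of 0.115 and 0.00103. The gene edc4, a scaffold of messenger RNA decapping, had 2 of the 15, with 192 and 1 reads at chromosome 18, 21668996 to 21671092 and 77 and 1 at 21686072 to 21687438. Its gene reads were 1110 in the mutant and 631 in wildtype. In znf207a, a zinc finger protein that in human cells binds spindle microtubules, the first listed intron had 116 and 1 reads (chromosome 3, 34319445 to 34322257). For naa60, an acetyltransferase of protein N-termini, the counts were 150 and 4 (chromosome 3, 27943502 to 27945686). The retention ratio was 119 (20.6 to 4750.2) for rnf175 and 60.8 (22.9 to 228) for naa60, with adjusted p = 1.8e-27 and 7.9e-47 by Fisher's exact test. The intervals of the ratios are exact conditional 95% intervals of the odds ratio. They cover the counting error of intronic and gene reads, not that of amplification or of the pools.

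Next come genes of membrane proteins. The gene tmem30c, of the family that partners phospholipid flippases, had 58 reads in the mutant and 1 in wildtype. They lay in the last of its 2 listed introns (chromosome 9, 31035626 to 31037194). The Golgi sodium-proton exchanger gene slc9a7 had 59 and 1 (chromosome 6, 37531806 to 37535233). Palmitoyltransferases, which attach palmitate to proteins, were there with zdhhc5a (68 and 1 reads, chromosome 1, 45002704 to 45004247) and zdhhc17 (192 and 4 reads, chromosome 4, 2370689 to 2374270). Calcium channel genes were there with cacna1ba (chromosome 5, 31119359 to 31123265) and cacna1c (chromosome 4, 19308289 to 19311753), each with 40 reads in the mutant and 1 in wildtype. For cacna1c only 8 and 9 gene reads were recovered. They are the smallest whole solution, which can understate gene reads by a whole factor. Its ratio of 45.0 has an interval from 4.67 to 2019, which is too wide if gene reads are understated. Scaled by the library total, the cacna1c intron was also called higher, with a log2 ratio of 4.89. The remaining genes were kifap3a, which links the kinesin-2 motor to cargo (87 and 3 reads, chromosome 20, 34451436 to 34454258), and matn4, a matrilin of the cartilage matrix (129 and 4 reads, chromosome 6, 52793011 to 52797958). With 1 to 4 wildtype reads the size of such ratios is poorly fixed, and with a pseudocount of 5 the 15 log2 ratios were 2.96 to 5.35.

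The best counted of the large rises was in a gene without a symbol, NM_001003847. Its intron at chromosome 14, 12695181 to 12697469 had 537 reads in the mutant and 12 in wildtype. The coefficient was 0.881 in the mutant library, an intron level near the gene value, and 0.0154 in wildtype. The ratio was 57.2 (32.3 to 112) with adjusted p = 1.3e-150 by Fisher's exact test.

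**Figure D4:**
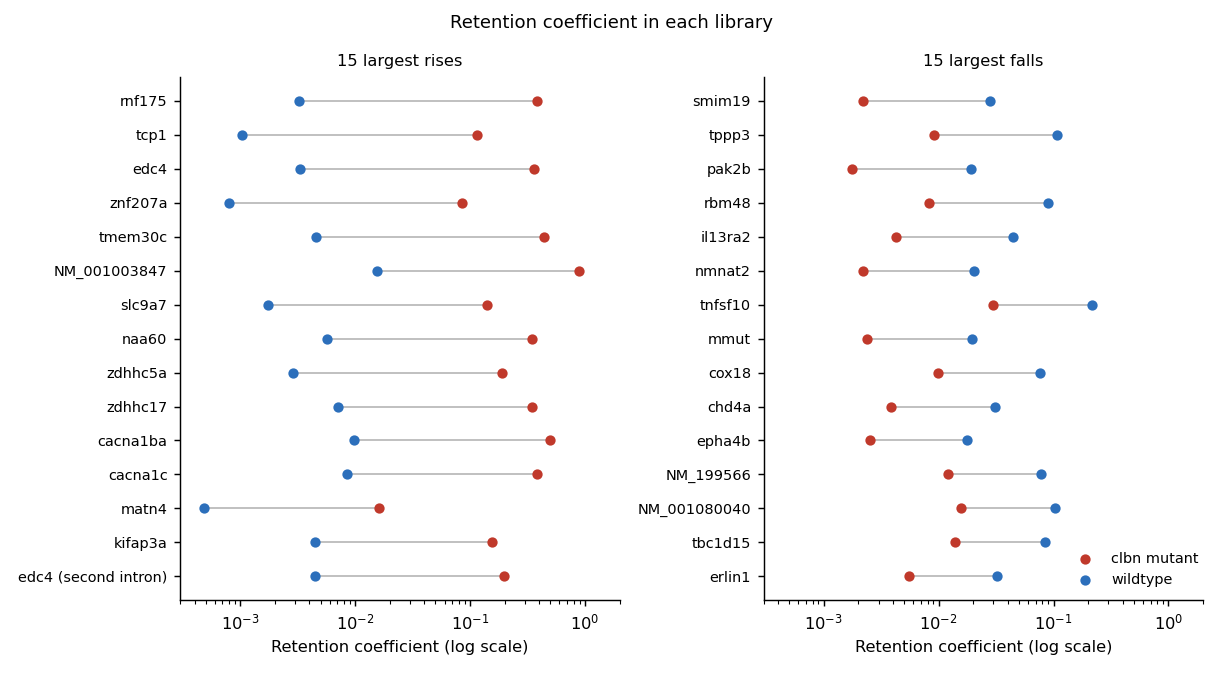
Retention coefficient (log axis) in the mutant (red) and wildtype (blue) library for the 1 to 5 kb introns with the 15 largest rises (left) and 15 largest falls (right) among called introns, joined by a line. The rises end at up to 0.881 in the mutant and most wildtype values rest on 1 read; the falls cover shorter distances and most mutant values rest on 2 to 5 reads.

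Values of neighbouring introns are given for 4 genes that hold an intron among the 15 largest rises. That intron was picked for its size, which favours lower neighbours, so nothing is read from neighbours that lie lower. In NM_001003847, of 13 tested introns of any length, the other 12 had a median log2 ratio of 0.54, and 1 of them was called higher, the last listed one (572 bp). In matn4 the called intron was the last of 15 listed, and its 10 tested neighbours lay between -0.17 and 1.22 with no call. In edc4 the 2 higher introns stood 3rd and 14th among 19 listed, and 2 introns of other lengths were called lower. Those lower calls had 7 against 15 and 7 against 20 reads, beside the higher gene reads of the mutant. In cacna1ba the first 3 listed introns were all called higher, at 3.44, 5.10 and 2.49, and the other 5 lay between -1.24 and 1.60 with no call. The first of these had 106 reads in the mutant and 12 in wildtype. These 4 genes were chosen after their values were seen.

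**Figure D5:**
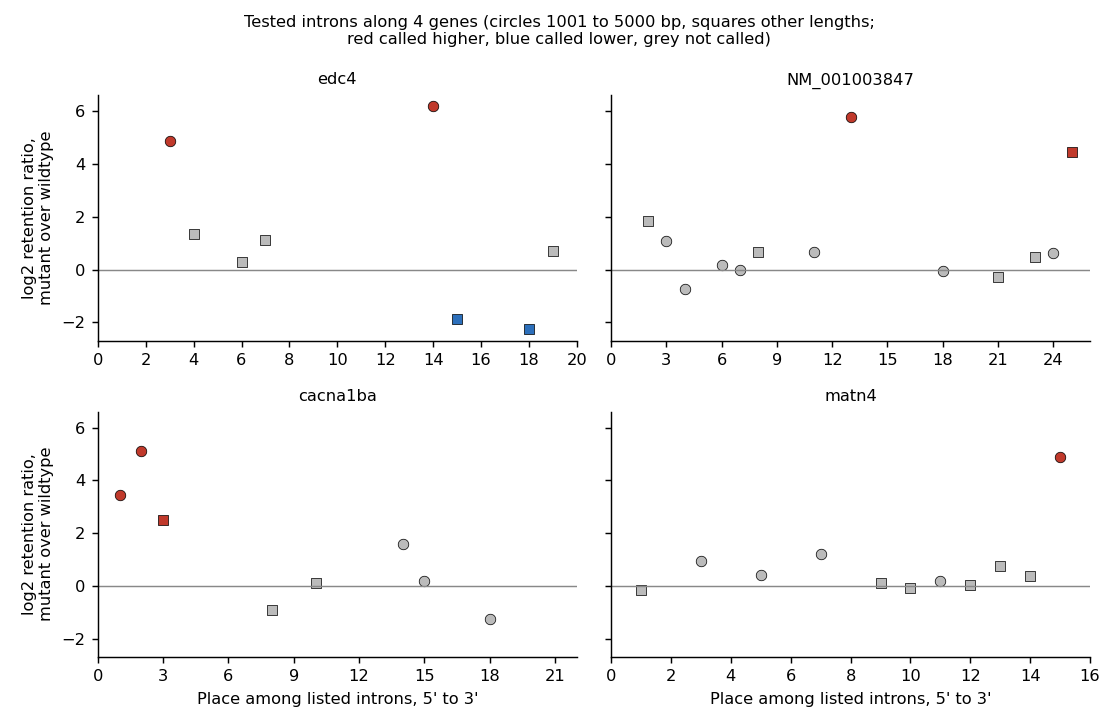
The log2 retention ratio, mutant over wildtype, of each tested intron along 4 genes in their listed order (circles 1 to 5 kb, squares other lengths, red called higher, blue called lower, grey not called). In matn4 and NM_001003847 a called intron, picked for its large rise, stands far above most of its neighbours. In cacna1ba the 3 called introns are the first 3 listed.

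Of the members called higher, the 8 with most reads were picked for description after values were seen. One of them was the intron of NM_001003847 above, with its ratio of 57.2, and the other 7 had ratios from 2.05 to 12.9. The ribosomal protein gene rpl4 had 901 reads in the mutant and 331 in wildtype (chromosome 18, 19233819 to 19235331). The mutant was high, with a ratio of 3.35 (2.94 to 3.81) and adjusted p = 1.2e-84 by Fisher's exact test. In brd2a, a bromodomain regulator of transcription, there were 847 and 310 reads and coefficients of 1.11 and 0.367 (chromosome 19, 7777177 to 7779507). In pcf11, a factor of 3' end cleavage and transcription termination, there were 520 and 190 reads and coefficients of 1.07 and 0.399 (chromosome 21, 21994165 to 21995968). The lipid phosphatase gene ptenb had 407 and 23 reads at chromosome 12, 18487567 to 18491035, which was 12.9-fold higher (8.39 to 20.7). The ubiquitin ligase subunit gene maea had 300 and 101 reads, and the inositol phosphate kinase gene ip6k2a 323 and 118, with ratios of 3.61 (2.82 to 4.64) and 2.48 (1.99 to 3.11). The arrestin-like gene arrdc3a had 515 and 247 reads and lay just past the 2-fold limit at 2.05 (1.70 to 2.47).

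The largest falls rested on few reads. The lowest ratio was in smim19, a small membrane protein gene, whose only listed intron had 2 reads in the mutant and 23 in wildtype (chromosome 14, 22240510 to 22242879). Its ratio was 0.0792 (0.00897 to 0.329), with adjusted p = 0.00065 by Fisher's exact test. In tppp3, which promotes tubulin polymerisation, the counts were 2 and 18 (chromosome 7, 36693112 to 36694293), and in the kinase gene pak2b 2 and 21 (chromosome 22, 2155624 to 2160287). In rbm48, whose maize counterpart takes part in U12-type splicing, they were 2 and 27 (chromosome 19, 41140758 to 41142881). The interleukin decoy receptor gene il13ra2 and the axonal NAD enzyme gene nmnat2 each had 2 and 21. The best counted of the 15 largest falls was in tnfsf10, a death receptor ligand gene, with 11 reads in the mutant and 65 in wildtype. Its coefficients were 0.0299 and 0.214 (chromosome 24, 27804500 to 27805839). Its ratio was 0.139 (0.0650 to 0.275) with adjusted p = 1.9e-09 by Fisher's exact test. Metabolic and mitochondrial genes among the 15 were mmut (2 and 18 reads), the methylmalonyl-CoA mutase, and cox18 (3 and 21), which inserts a cytochrome oxidase subunit. The others were the chromatin remodeller chd4a (2 and 24), the ephrin receptor epha4b (3 and 23), tbc1d15 (3 and 23), erlin1 (4 and 25), and NM_199566 (5 and 28). The fall in NM_001080040 (4 and 17 reads) was not called with scaling by the library total, where its log2 ratio was -1.82.

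Falls on more reads stayed close to 2-fold. Of the members called lower, the 8 with most reads were again picked for description after values were seen. The polyamine acetyltransferase gene sat1a.1 had 103 reads in the mutant and 339 in wildtype (chromosome 5, 4342170 to 4346342), a ratio of 0.440 (0.345 to 0.557). The respiratory complex I genes ndufa8 and ndufb7 had 61 and 148 reads and 42 and 78 reads, with ratios of 0.430 and 0.470. The ubiquitin ligase adaptor skp1 had 44 and 95 reads, and the elongation factor gene eef2b had 38 and 97, with ratios of 0.456 and 0.427. The ratios of the 8 lay between 0.427 and 0.470. Of these 8, only sat1a.1, ndufa8 and eef2b were also called with scaling by the library total.

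Summed over its 1 to 5 kb introns, a gene was called higher in 182 of 5925 cases (3.07%) and lower in 60 (1.01%). Summed over introns of every length, 178 of 8342 genes (2.13%) were higher and 72 (0.863%) lower. That is another set of genes, and introns of other lengths enter each sum, so these shares are not like for like. The median log2 ratio of the sums was 0.02. Of the genes with a higher intron, 130 were not called by the sum. Of the 182 higher genes, 36 had no single member called higher, and of the 60 lower genes 21 had none called lower. The genes named next were taken only from called genes with at least 2 introns of this length that had reads. Genes with a single such intron, such as smim19, were left out of this ranking. In each of the 5 ranked genes with the largest rises by sum, 1 intron held most of the mutant reads. In naa60 the sum was 158 reads in the mutant and 10 in wildtype, of which introns other than the called one gave 8 and 6. In lsm12a, an LSM domain gene, the sum was 243 and 14, a ratio of 12.6 (7.17 to 23.9), of which the others gave 14 and 1. Sums for tmem30c (63 and 4), zdhhc17 (194 and 10) and slc9a7 (61 and 7) were alike in this. The falls differed, since 4 of the 5 genes named had no intron with enough reads to be tested alone. They were ccdc61 (4 and 22 reads over 3 introns), cdc73 of the PAF1 transcription complex (4 and 27), the glutathione peroxidase gene gpx3 (5 and 24) and the mitochondrial NAD kinase gene nadk2 (7 and 29). Their ratios were 0.128 (0.0315 to 0.392), 0.146 (0.0366 to 0.428), 0.169 (0.0486 to 0.483) and 0.213 (0.0773 to 0.515), beside gene values 1.12 to 1.56 times as high in the mutant. The other, tppp3, had 7 and 25.

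Genes that background knowledge ties to U12-type introns formed the list with the most higher calls. The list is not independent evidence, since it was chosen with earlier results of these data known. Some of its genes may hold no such intron in zebrafish, and the major spliceosome removes most of their introns. It had 78 tested 1 to 5 kb introns in 45 genes. Of these, 31 (39.7%, 28.8 to 51.5%) in 27 genes were higher and 2 lower, against 266 (3.05%) and 139 (1.59%) of the 8733 members outside the list. At 8-fold, 15 of the 78 were higher, against 65 of the 8733. The median coefficient of the list was 0.0676 in the mutant and 0.0313 in wildtype, and that of the other members 0.0243 in both. The median log2 ratio was 0.44 on the list (quartiles -0.20 and 2.32) and 0.01 off it. The 45 uncalled list introns had a median of 0.00, as did the 8328 uncalled members off the list. Leaving out the called introns draws such medians towards no change, so nothing is read from them. The higher list introns had median reads of 48 in the mutant and 5 in wildtype. Of list introns of other lengths, 18 of 79 were higher and 0 lower. Of the 15 largest rises, those of znf207a, slc9a7, cacna1ba, cacna1c and kifap3a were on the list, and those of rnf175, tcp1, edc4, naa60, tmem30c, both palmitoyltransferases, matn4 and NM_001003847 were not. The mutated gene rnpc3, itself on the list, had 60 reads in the mutant and 66 in wildtype in its last listed intron (chromosome 24, 29886000 to 29889396). Relative to its 109 and 273 gene reads this was called higher, at 2.28 (1.47 to 3.52), and with scaling by the library total its log2 ratio was 0.00 with no call. The best counted uncalled list intron lay in znf207b, with 130 and 111 reads (log2 ratio 0.14).

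Genes with both a higher and a lower member numbered 4, and were named because of it. In kifap3a, on the U12 list, introns with 87 against 3 and 26 against 1 reads were higher in the mutant, and one with 4 against 22 was lower (chromosome 20, 34472141 to 34474728). In atg3, an enzyme of autophagy on the same list, one intron had 67 reads in the mutant and 16 in wildtype, and another 8 and 25. In the insulin pathway kinase gene pdpk1b the counts were 117 and 11 and 26 and 11 in the higher introns and 15 and 68 in the lower one. In NM_001159406 they were 249 and 22, and 28 and 53. The lower calls of atg3 and NM_001159406 and the pdpk1b call with 26 and 11 reads were not made with scaling by the library total.

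Calls in tissue and housekeeping lists are set beside the 2.92% higher and 1.46% lower of the whole table. Sarcomere and muscle genes had 0 higher and 0 lower of 106 tested introns, with a median log2 ratio of 0.05. Exocrine pancreas enzymes had 0 and 0 of 20 (median 0.21) and lens genes 0 and 0 of 18 (-0.06). Sterol and lipid synthesis had 0 and 0 of 30 (-0.38). At the shares of the whole table, lists of 18 to 30 introns can hold no call, so nothing is read from these 3. The pancreas intron with most reads, in the trypsin gene prss1, had 796 reads in the mutant and 2227 in wildtype beside 18101 and 61069 gene reads (chromosome 16, 27321689 to 27324172). Its ratio to the gene was 1.21 (1.11 to 1.31), while its log2 ratio scaled by the library total was -1.35. For the lens, cryba2b had 246 and 322 reads, a ratio of 1.34 (1.13 to 1.60). On the sterol and lipid synthesis list, the intron with most reads lay in ldlra, a low density lipoprotein receptor gene and not a synthesis enzyme. It had 89 and 148 reads, a ratio of 0.749 (0.563 to 0.994, adjusted p = 0.24 by Fisher's exact test).

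Splicing factors of the SR and hnRNP families had 1 higher (1.47%) and 0 lower of 68 tested introns, with a median of -0.09. That one, in hnrnpl2, had 59 reads in the mutant and 24 in wildtype (chromosome 15, 5689228 to 5690621), a ratio of 2.35 (1.43 to 3.98). The intron with most reads, in srsf5a, had 1251 and 1509 reads and coefficients of 0.490 and 0.512. Ribosomal protein genes had 3 higher (2.68%, near the 2.92% of the whole table) and 0 lower of 112 (median 0.02). Besides rpl4 these were rpl35 (56 and 11 reads, chromosome 21, 5739006 to 5742940) and rpl38 (140 and 34 reads, chromosome 12, 40101041 to 40102643), with ratios of 5.22 (2.71 to 11.1) and 3.97 (2.69 to 6.01). Close copies and pseudogenes of ribosomal protein genes can share reads, and how the authors' counting treated them is not given in the sources used here.

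Collagens and matrix genes had 4 higher (2.67%) and 2 lower (1.33%) of 150 (median 0.06), near the 2.92% and 1.46% of the whole table. Besides matn4, the higher ones lay in its relative matn1 (180 and 34 reads, ratio 6.35, 4.37 to 9.47) and the cartilage collagen genes col11a1b (25 and 4) and col11a1a (56 and 27). The ratio of col11a1a was 2.03, and it passed the 2-fold limit no longer with a pseudocount of 5. The lower ones lay in agrn, which organises synapses (7 and 26 reads), and in col1a1b, a collagen I chain (16 and 44). Neuronal genes had 1 higher (1.43%) and 3 lower (4.29%) of 70 (median -0.05). The GABA transporter gene slc6a1a had 18 reads in the mutant and 3 in wildtype. The lower ones were stmn2a, a regulator of axonal microtubules (18 and 52), the glutamate receptor gene gria2a (19 and 44) and the vesicular GABA transporter gene slc32a1 (30 and 68). Of the lower neuronal calls, gria2a and slc32a1 did not pass 2-fold with a pseudocount of 5, and gria2a was not called with scaling by the library total.

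Values by position, gene value and strand follow, with no test of a difference. First listed introns had a median log2 ratio of 0.09 (0.04 to 0.14) with 3.66% (2.58 to 5.03%) higher. Internal introns had 0.01 (-0.01 to 0.03) with 3.43% (2.97 to 3.94%), and last listed introns 0.00 (-0.04 to 0.02) with 2.83% (2.09 to 3.75%), so that the intervals of the shares overlapped. Only genes with at least 2 listed introns entered these groups. By gene value in 4 equal groups, the share higher was 4.41% in the lowest and 2.32% in the highest group. The median coefficient was 0.0570 in the mutant and 0.0564 in wildtype in the lowest group, and 0.0101 and 0.00941 in the highest. Dividing by the gene value under a read minimum favours such an order, and how far it sets this one was not tested. Minus strand introns made up 59.7% of members, 68.8% of tested members and 55.9% of the higher ones, while 53.2% of Refseq IDs with a member lie on that strand. Median coefficients over members with a gene value were 0.0207 in the mutant and 0.0202 in wildtype on the minus strand, and 0.0122 and 0.0119 on the plus strand. Of plus strand introns 4.76% were higher and 1.93% lower, and of minus strand introns 2.74% and 1.45%. Whether the counting used strand is not given in the sources used here, reads of overlapping antisense genes cannot be told apart, and their part in these values was not tested.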

How the data were processed

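Poly(A) RNA of 1 mutant and 1 wildtype pool was sequenced on the SOLiD system after 18 cycles of amplification, per the labels' protocols. The build is Zv9 per the submitters' processing notes, and no source used here names the aligner, the counting tool or the treatment of reads that map to several places. The authors deposited 1 table with whole read counts per Refseq intron, not normalized. Per the file headers it also holds levels in RPuKM (RPKM computed on the unique length of an intron), their log2 values, and fold change ratios. The deposited log2 and ratio columns were not used. The deposited gene values have no stated unit. They came out as whole reads over a whole length, scaled by library size, for 10223 of 10223 Refseq IDs within 1e-06 bp, and the smallest whole solution was used, which can understate gene reads by a whole factor. The deposited retention coefficient equals RPuKM over the gene value. Library sizes were recovered from counts, lengths and RPuKM.

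Positions were printed counted from 1, by adding 1 to the start. Gene symbols were looked up in Refseq annotation of another assembly (GRCz12tu), with none of its coordinates, and were found for 96.2% of the Refseq IDs with a member. Calls were made in Python 3.11.15 with scipy 1.17.1 (Fisher's exact test, Benjamini-Hochberg adjustment over 20223 introns, or over all tested genes for sums). The calling rule was also run on simulated counts that held counting error alone, with adjustment over members only. That run cannot speak to error from amplification or from the pools. Intervals hold for counting error alone, because reads copied by amplification do not stand for separate molecules. Named introns were the 15 largest rises and 15 largest falls among called members, the 10 largest mean coefficients with at least 50 gene reads in each library, the 5 genes at either end by summed reads, and in each gene list the called introns, up to 6, and the uncalled one with most reads. Where that rule ran past what helps a reader, only part is named. The genes by summed reads were taken from called genes with at least 2 members that had reads. The members and the gene lists were chosen with earlier results of these data known. Alternatives were other pseudocounts (1 and 5), read minimums, scaling by the library total, a minimum of gene reads, 1 intron a gene, mostly unique introns and a 4-fold limit. With 1 library a genotype there is no replicate check.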

Additional observations from a re-analysis of the deposited data

Results flagged for a closer look

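Among 1 to 5 kb introns without a gene value, which entered none of the comparisons above, 19 had at least 20 reads over both libraries. Scaled by the library total, 2 of them were called higher in the mutant library and 0 lower (Fisher's exact test, adjusted p under 0.05 over 20317 introns, at least 2-fold). Under this scaling 3.88% of those introns were higher and 2.47% lower. The 2 were singled out because they were above the wildtype level in data outside the main measurement. The one at chromosome 16, 28063481 to 28067875 had 26 reads in the mutant and 3 in wildtype (adjusted p = 0.0001, Fisher's exact test). The other, at chromosome 2, 31396735 to 31399941, had 18 and 3 (adjusted p = 0.011, Fisher's exact test). The median log2 ratio of the 19 was -0.51. Whether gene levels moved with them was not tested.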

How the results depend on the processing

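The 297 higher and 141 lower introns kept within 1.5 times under a pseudocount of 1 or 5, minimums of 5 reads or none, scaling by the library total (384 and 208), genes with at least 100 reads, and, chosen after seeing the data, without introns that overlap another listed one (294 and 138). They became 153 and 59 with at least 50 reads, 178 and 80 with 1 intron a gene, 110 and 47 with at least 90% unique length, and 183 and 48 at 4-fold. By construction, the first 3 of these settings keep fewer introns and the last asks for a larger change. These are counts, and the number of members tested also changed. Against 8811, it was 22852 with at least 5 reads, 24823 with no minimum and 3077 with at least 50. With no minimum 267 were higher and 99 lower, which are smaller shares of those tested. The shares with at least 50 reads were larger. Lower genes by sum became 35 with at least 50 reads. The median log2 ratio, 0.0149, was 0.0394 with no minimum, 0.0354 with scaling by the library total and 0.0352 with at least 90% unique length. Over all tested introns it was 0.05 with scaling by the library total. The median coefficients became 0.0179 in the mutant and 0.0174 in wildtype with at least 5 reads, 0.0300 and 0.0289 with at least 50, and 0.0172 and 0.0166 with no minimum; the minimum selects introns with many reads. Of 135 named introns, 132 kept their call, or stayed uncalled, with a pseudocount of 5 and 122 with scaling by the library total, where 11 lost it. The prss1 intron reversed to -1.35 under that scaling, beside its lower gene reads. No paired analysis was possible because each genotype has 1 library with no shared replicate, and leaving out a replicate was not possible for the same reason. Depth limits the largest falls, of which 14 of 15 had 2 to 5 mutant reads.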

Other observations

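Several gene families, noticed and grouped after their values were seen, held more than one higher 1 to 5 kb intron. Of the genes named here, slc9a6b, slc9a8, kifap3b, dctn3 and arpc5la are also on the U12 list. They are described without a test, since the choice of the families rests on the calls. Over all tested introns 2.92% were higher and 1.46% lower, and since calls chose the families, nothing is read from their counts against these shares. Palmitoyltransferase (zdhhc) genes had 12 tested introns in 8 genes, of which 6 in 5 genes were higher and 0 lower. Besides zdhhc5a and zdhhc17, zdhhc13 had introns with 43 reads in the mutant and 2 in wildtype and with 25 and 4, zdhhc8b had 49 and 3, and zdhhc18a had 28 and 5. The other introns of the family, such as those of zdhhc6 with 13 and 11 reads, were not called. All 3 tested genes of the tmem30 family, partners of phospholipid flippases, had a higher intron, with 194 reads in the mutant and 17 in wildtype in tmem30ab and 162 and 45 in tmem30aa. Kinesin-2 adaptor genes had 3 higher introns and 1 lower among 5 tested, with 42 and 3 reads in kifap3b. Sodium-proton exchangers (slc9) had 3 higher among 5, with 29 and 3 reads in slc9a6b and 45 and 12 in slc9a8, while both introns of slc9a2 were not called (26 and 14, and 16 and 15).

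Dynein and dynactin genes, which code for a motor that carries cargo towards microtubule minus ends and for its cofactor, had 4 higher introns and 0 lower among 18 tested. They lay in the light intermediate chain genes dync1li2 (33 reads in the mutant and 1 in wildtype) and dync1li1 (90 and 16, and 30 and 9) and in dctn3 (119 and 42). The heavy chain gene dync1h1 had no called intron, with 583 and 827 reads in its intron with most reads (ratio 0.784, 0.693 to 0.887). The zinc transporter genes (slc30) had 1 higher intron among 4 tested, in slc30a5 with 50 and 2 reads. The cation-chloride cotransporter family (slc12) had 0 called among 2 tested introns, both of slc12a9, with 16 and 7 and with 20 and 11 reads.

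In golga7, which codes for a partner of palmitoyltransferases, both tested introns of this length rose by 2.55 and 3.10 on the log2 scale, and in arpc5la, a subunit of the actin nucleating complex, both rose by 2.00 and 2.36. In sms, the spermine synthase gene, 2 of 3 rose by 3.22 and 3.58. These genes were picked, after values were seen, from those with 2 higher members, so the rises are part of the choice. Nothing is read from them against the 2.92% of all tested introns that were higher.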
